A study of Homo sapiens and Mus musculus with 10 samples.

Results

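The accessible chromatin of 2 aneuploid human lines, K562 and HEK293T, was compared with that of 2 near-diploid lines, GM12878 and HFF1. Peaks of the 8 libraries were merged into 236627 autosomal regions, and a region counted as a member when all 4 libraries of one pair of lines had a peak there and none of the other 4 did. In all, 1383 regions were open in K562 and HEK293T only, which is 0.584% of the regions, and 6274 were open in GM12878 and HFF1 only, which is 2.65%. Promoters, taken as the 1 kb on either side of any annotated start site, were counted by the same rule for 19111 autosomal protein-coding genes. Of these, 32 (0.167%) were open in K562 and HEK293T only and 258 (1.35%) in GM12878 and HFF1 only. These counts follow from the choice of members and carry no test.

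The study profiled 5 cell lines with bulk ATAC-seq, an assay in which the Tn5 transposase inserts adapters into accessible DNA, and the 2 mouse libraries of its 10 were not used here. K562 is an erythroleukaemia line grown in suspension, and HEK293T is an adherent line from embryonic kidney into which SV40 large T antigen was introduced. GM12878 is a B-lymphoblastoid line made with Epstein-Barr virus, and HFF1 is an adherent skin fibroblast line. Each line had 2 replicate libraries. The labels name no treatment and no genotype beyond the line. K562 and GM12878 grew in RPMI-1640 and the adherent lines in DMEM, all with fetal bovine serum, so each pair compared holds 1 blood line and 1 adherent line. The labels do not give the karyotype or say whether replicates came from separate cultures. The words aneuploid and near-diploid are background knowledge of the lines, and replicate spread may be technical.

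Aneuploid cells carry unequal numbers of copies of their chromosomes or chromosome segments. More copies of an accessible site give more transposition events there, so copy number can raise or lower ATAC-seq signal without any change in chromatin. Whole-chromosome gains and losses are also known to go with cytosolic DNA, interferon signalling and p53 activity, and tumour lines often silence genes of those pathways. The pairs compared here differ in much else, including tissue of origin and the virus that immortalised a line, and with 2 lines a side these cannot be told apart from ploidy.

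Sequences of regions that carry the results below are shown first, each as 101 bp of hg38 centred on a peak summit, on the plus strand, with matches to the named motif in capitals. The first set holds high ranked distal regions open in GM12878 and HFF1 only that contain an AP-1 site (TGANTCA), a RUNX site (TGTGGTT) or an NF-kB site (GGGANTTTC), each region shown for 1 motif. The SVIL region also holds the RUNX letters, left in lower case. All motifs were searched on both strands.
SVIL intron, AP-1, chr10:29659088-29659188: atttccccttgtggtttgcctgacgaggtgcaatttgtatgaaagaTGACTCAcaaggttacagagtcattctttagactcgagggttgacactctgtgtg
LRRFIP1 intron, RUNX, chr2:237687813-237687913: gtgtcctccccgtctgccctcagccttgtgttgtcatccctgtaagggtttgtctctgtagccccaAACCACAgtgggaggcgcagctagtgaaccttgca
SMG6 intron, NF-kB, chr17:2223192-2223292: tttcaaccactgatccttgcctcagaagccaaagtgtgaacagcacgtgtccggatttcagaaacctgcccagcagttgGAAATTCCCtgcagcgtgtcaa
The second set holds the strongest distal region open in K562 and HEK293T only, with its CpG dinucleotides in capitals, and the highest ranked one with a GATA site (AGATAAG).
between genes, CpG, chr6:6686977-6687077: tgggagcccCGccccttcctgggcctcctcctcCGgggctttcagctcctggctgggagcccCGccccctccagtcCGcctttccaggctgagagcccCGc
C20orf203 intron, GATA, chr20:32665478-32665578: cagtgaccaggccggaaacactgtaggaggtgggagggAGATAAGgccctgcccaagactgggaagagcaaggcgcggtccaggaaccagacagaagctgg
The third set holds promoter peaks. Those of IFI44 and CASP1 contain an IRF site (GAAANNGAA), those of the zinc finger genes ZNF506 and ZNF737 contain an NFY site (CCAATCA), and that of EN1 is shown with its CpG dinucleotides. IFI44, CASP1 and ZNF737 were chosen after their values were seen.
IFI44, chr1:78649735-78649835: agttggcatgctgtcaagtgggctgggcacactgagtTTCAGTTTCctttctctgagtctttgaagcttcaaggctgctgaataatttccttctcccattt
CASP1, chr11:105035103-105035203: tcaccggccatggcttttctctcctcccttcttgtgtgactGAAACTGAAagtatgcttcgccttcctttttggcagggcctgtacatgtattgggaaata
ZNF506, chr19:19821738-19821838: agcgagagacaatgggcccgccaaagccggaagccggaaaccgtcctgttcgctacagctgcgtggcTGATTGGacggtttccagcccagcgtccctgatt
ZNF737, chr19:20565766-20565866: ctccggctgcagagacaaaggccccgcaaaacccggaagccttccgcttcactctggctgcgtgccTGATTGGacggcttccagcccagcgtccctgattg
EN1, chr2:118847846-118847946: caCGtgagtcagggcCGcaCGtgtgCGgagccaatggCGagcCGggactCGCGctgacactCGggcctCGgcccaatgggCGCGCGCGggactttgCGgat

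The libraries differed in depth, with HEK293T, in 1 of the pairs compared, the shallowest. Depth was read from the expected background at peaks, in reads per window, which was recovered from the deposited values. It was 0.465 and 0.466 in the HEK293T libraries and between 1.71 and 2.43 in the other 6. Autosomal peaks numbered 72714.5 ± 5001 for K562, 50332.5 ± 211 for HEK293T, 99639 ± 1403 for GM12878 and 121124 ± 4837 for HFF1 (SD, n = 2 libraries each). The line identities were checked on marker promoters. Of 7 B-cell genes, CD79A, CD79B, MS4A1 and BLK were open in GM12878 alone and the other 3 in all 8 libraries. TAL1 and HBE1 were open in K562 alone, PAX2 and LHX1 in HEK293T alone, and COL3A1 in HFF1 alone, while the erythroid genes KLF1 and HBG1 had no promoter peak in any library. The other listed markers of K562, HEK293T and HFF1, except SOX11 and PAX8, were open in their own line and in at least 1 library of a further line. SOX11 and PAX8 are listed for HEK293T but had no promoter peak there. SOX11 was open in HFF1 only, and PAX8 in K562, GM12878 and HFF1. The pairs therefore differ in depth through HEK293T, as well as in ploidy. The K562 libraries (2.21 and 1.97) were deeper than those of GM12878 (1.71 and 1.73). The main counts are also given after the lists were thinned to the depth of the shallowest library.

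The GM12878 and HFF1 pair shared the most regions of any pair of lines, and the K562 and HEK293T pair was among the lowest. Over the 16470 regions open in both libraries of exactly 2 lines and closed in the other lines, 6274 (38.1%) belonged to GM12878 and HFF1. K562 and HFF1 shared 2990, K562 and GM12878 2794, HEK293T and HFF1 1683, K562 and HEK293T 1383 (8.40%) and HEK293T and GM12878 1346. Promoters gave another order below the first place. Of 800 promoters open in exactly 2 lines, 258 (32.3%) belonged to GM12878 and HFF1, 222 to HEK293T and HFF1, and 32 (4.00%) to K562 and HEK293T.

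**Figure D1:**
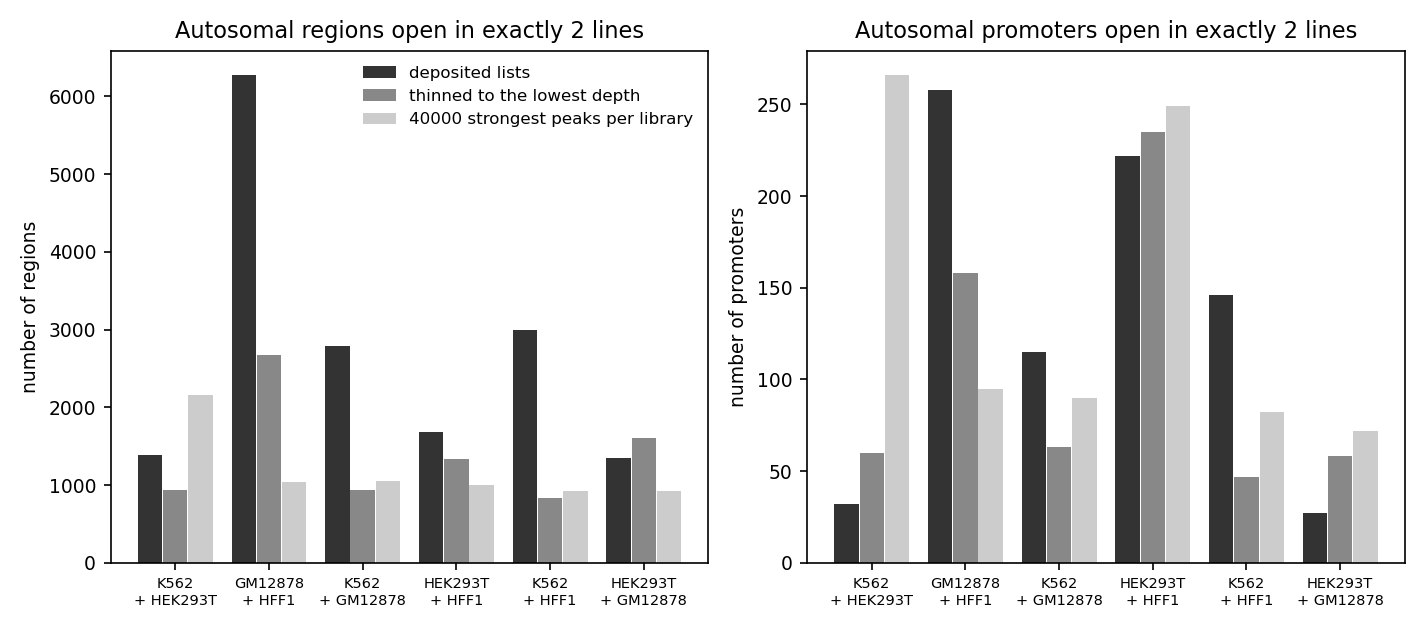
Number of autosomal regions (left) and promoters (right) with peaks in both libraries of exactly 2 lines, for the 6 pairs of lines; bars give the deposited lists, the lists thinned to the lowest depth and the 40000 strongest peaks per library. GM12878 and HFF1 lead for regions in the first 2 settings (6274 and 2671), and K562 and HEK293T lead in the last (2156).

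The order of the pairs depended on how peaks were taken. After thinning, 2671 regions and 158 promoters were open in GM12878 and HFF1 only, against 931 regions and 60 promoters in K562 and HEK293T only. HEK293T and HFF1 then led the promoters, with 235 (37.8%) against 158 (25.4%) for GM12878 and HFF1. They also led with the weakest 30% of each list left out, at 278 against 245. With the 40000 strongest autosomal peaks of each library the order turned, to 1036 regions and 95 promoters against 2156 regions and 266 promoters. The promoters of K562 and HEK293T numbered 50 without the HEK293T replicate 2, a setting that relaxes the rule. Just outside the rule, 481 regions had all 4 peaks of K562 and HEK293T and 1 of the other side, and 1435 had 3 and none. For GM12878 and HFF1 these numbers were 1827 and 3192, and 884 of the 1827 had their extra peak in K562 replicate 1.

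A set of 4 tests compared the pairs as wholes, with the line as the unit. K562 and HEK293T had fewer autosomal peaks than GM12878 and HFF1, a mean difference of -48858 (exact two-sided permutation p = 0.333, adjusted p = 0.444 over 4 tests). The promoter share of autosomal peaks was higher, at 26.6% ± 1.23 in K562 and 34.5% ± 0.600 in HEK293T against 21.6% ± 0.137 in GM12878 and 20.5% ± 0.505 in HFF1 (SD, n = 2 libraries; exact permutation p = 0.333, adjusted p = 0.444). Neither measure overlapped between the pairs, and 0.333 is the smallest p that 2 lines against 2 can give, so no difference here can pass a threshold of 0.05. After thinning the peak numbers were 44857.5 for K562 and 50332 for HEK293T against 73918 for GM12878 and 73390.5 for HFF1, and the promoter shares were 33.3%, 34.5%, 24.4% and 24.6%.

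The peak lists of K562 and HEK293T were the most alike of any pair of lines, although few regions were theirs alone. The Jaccard index, the covered bases shared over the bases covered by either list, averaged 0.335 for K562 and HEK293T and 0.232 for GM12878 and HFF1. Across the pairs compared it was 0.294 for K562 and GM12878, 0.248 for HEK293T and GM12878, 0.242 for K562 and HFF1 and 0.206 for HEK293T and HFF1. The mean was 0.283 within and 0.248 between the pairs, a difference of 0.0355 (exact one-sided permutation p = 0.333 over the 3 ways to pair the lines, the smallest it can give, adjusted p = 0.444). The higher index within the pairs thus came from K562 and HEK293T, since the GM12878 and HFF1 value lay below 3 of the 4 values between pairs. The index is also capped by the sizes of the lists, so lists of unlike size cannot reach a high value. Peaks covered 16.3 and 16.7 Mb in HEK293T, 26.6 and 29.2 Mb in K562, 39.3 and 39.9 Mb in GM12878 and 47.7 and 52.1 Mb in HFF1.

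Regions of K562 and HEK293T were rich in GC and mostly away from promoters, and those of GM12878 and HFF1 were wider. Their median GC content over the 101 bp at the summit was 57.4%, against 46.5% for those of GM12878 and HFF1 and 49.5% for all regions. At least 3 CpG dinucleotides lay in 46.3%, 24.1% and 26.8% of these windows, and in 48.1% of those of HEK293T and HFF1 only. Their median width was 323 bp, close to the 321 bp of all regions, while those of GM12878 and HFF1 measured 556 bp. This width was not particular to that pair, with 560 bp for K562 and HFF1 only and 584 bp for HEK293T and HFF1 only. Regions of K562 and GM12878 only measured 448 bp, those of HEK293T and GM12878 only 301 bp and those open in all 8 libraries 830 bp. Promoters made up 8.68% of the regions of K562 and HEK293T and 13.3% of those of GM12878 and HFF1, against 14.04% of all regions and 54.0% of the 20134 regions open in all 8 libraries. After thinning, the promoter shares of both kinds came to 14.6% and 14.7%, while the median GC content of their distal regions stayed apart at 57.4% and 46.5%.

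Neither kind held the strongest peaks of its libraries. Ranked within each list by the deposited -log10 p, members of K562 and HEK293T had median percentiles of 52.9 and 47.5 in the K562 libraries and 47.3 and 47.1 in the HEK293T libraries. Members of GM12878 and HFF1 had medians of 49.6, 50.2, 54.8 and 51.5. Regions open in all 8 libraries had medians between 72.5 and 85.7. At the depth of the shallowest library, between 67.9% and 83.6% of the peaks of GM12878 and HFF1 members would still lie above their threshold, and in K562 64.1% and 65.8% of those of K562 and HEK293T members.

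AP-1 is the family of FOS and JUN dimers that respond to growth and stress signals, RUNX factors act in blood and mesenchyme, and IRF and NF-kB factors drive immune genes. Distal regions of GM12878 and HFF1 held these motifs more often than those of K562 and HEK293T. AP-1 sites lay in 23.01% of 5441 distal regions of GM12878 and HFF1, in 4.12% of 1263 of K562 and HEK293T and in 15.0% of all 203393 distal regions. RUNX sites lay in 7.17%, 1.98% and 4.51%. NF-kB sites lay in 2.52%, 0.158% and 1.03%. PU.1 sites (AGGAAGT, the ETS factor of myeloid and B cells) lay in 6.43%, 2.45% and 4.80%, below the 9.67% of K562 and GM12878 only. IRF sites lay in 7.37%, 1.35% and 4.62%. The same letters read backwards, without complementing, served as a measure of base composition: they gave 3.79%, 1.504% and 2.97% for AP-1 but 4.93%, 1.58% and 3.68% for IRF, so much of the IRF difference was shared by the reversed letters.

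**Figure D2:**
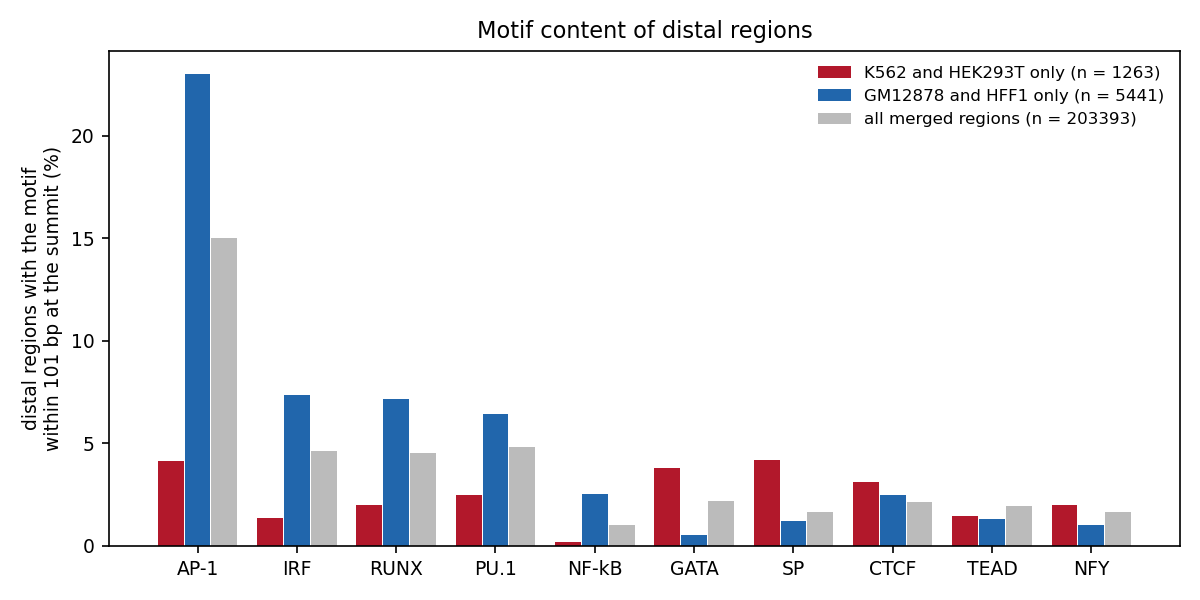
Share of distal regions with a motif match in the 101 bp at the summit, for 10 motifs; bars give regions open in K562 and HEK293T only, in GM12878 and HFF1 only, and all merged regions, with their numbers in the legend. AP-1 stands at 23.01% in the regions of GM12878 and HFF1 against 4.12% in those of K562 and HEK293T, and GATA and SP are the other way round.

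Other motifs were more frequent in the regions of K562 and HEK293T. GATA factors, of which GATA1 drives erythroid genes, had sites in 3.80% of their distal regions, in 0.533% of those of GM12878 and HFF1 and in 2.19% of all. The other pairs with K562 had higher shares, 4.78% for K562 and HFF1 only and 4.64% for K562 and GM12878 only. SP sites (GGGGCGG, bound by SP and KLF factors in GC-rich DNA) lay in 4.196%, 1.19% and 1.65%, and the reversed letters in 4.67%, 1.49% and 1.96%. Read backwards, these letters are again a G-rich stretch with a CpG, so they cannot separate the SP motif from base composition. At promoter regions open in all 8 libraries, SP sites lay in 31.8% and the reversed letters in 31.2%. The E-box CAGCTG was about as frequent in the distal regions of either kind and of all, at 9.18%, 10.3% and 9.66%. CTCF sites, searched by name only, lay in 3.09%, 2.48% and 2.15%, and p53 sites in 0, 1 and 30 regions. These shares describe letters under the summit and do not show which factor was bound. The AP-1 and GATA orders were the same after thinning, at 27.6% against 4.41% for AP-1 and 0.702% against 5.16% for GATA. In the 40000 strongest peaks AP-1 stood at 29.3% against 3.95%, and GATA at 0.352% against 2.30%.

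The AP-1 share was not highest in the near-diploid pair. Distal regions open in K562 and HFF1 only held AP-1 sites in 39.5%, those of HEK293T and HFF1 only in 18.2%, and those of K562 and GM12878 only in 12.7%. Those of HEK293T and GM12878 only held them in 4.49%, near the 4.12% of K562 and HEK293T.

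The 10 strongest regions of K562 and HEK293T lay mostly between genes, as did 47.65% of all 1383 and 43.07% of all merged regions. First by mean percentile was chr6:6686802-6687593, between genes and 98307 bp from the nearest start site, that of LY86. Its deposited folds over background were 10.3 and 9.36 in K562 and 15.2 and 14.3 in HEK293T, with 147, 122, 70 and 61 reads at the summit. It is the region printed above with its CpG dinucleotides, of which 5 lay in the 101 bp. The next 2 were chr4:4673011-4673442, 130896 bp from STX18, and chr7:149690462-149691463, 23602 bp from KRBA1. Of the 10 strongest, 7 lay between genes and 3 in introns, those of RHOH, TBC1D5 and USP12. RHOH encodes a blood-cell GTPase, TBC1D5 a regulator of membrane traffic and USP12 a deubiquitinase.

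Promoters led the regions of GM12878 and HFF1. First was the promoter of ANKAR, an ankyrin and armadillo repeat gene, at chr2:189673964-189675015, with folds of 16.4 and 16.6 in GM12878 and 12.9 and 14.5 in HFF1. An intron of CARS1, a cysteinyl-tRNA synthetase gene, held the second at chr11:3049535-3050376. A region at a start site of SGCE, a sarcoglycan gene known as imprinted, came next at chr7:94620682-94621316. Its folds were 20.2, 20.3, 21.3 and 21.1, with an AP-1 site under its summit. SVIL, which encodes the actin-binding protein supervillin, held the fifth in an intron, with folds of 14.5, 14.1, 13.9 and 13.4. Of these 10, 5 lay at promoters, 3 in introns and 2 between genes, and 4 had an AP-1 site. The promoter regions at SGCE and WBP2NL belong to genes that were not among the 258 promoter members, for which every start site counts.

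Genes that hosted several members differed between the kinds. DPP6, a potassium channel partner of neurons, and TUSC3, an oligosaccharyltransferase subunit, held 5 regions of K562 and HEK293T each, of 39 and 29 regions in the gene, and PTPRN2, a phosphatase-like protein of secretory vesicles, held 4 of 59. The share over all regions was 0.584%. None of these 3 genes held a region of the other side. ARHGEF28, a guanine nucleotide exchange factor, held 10 regions of GM12878 and HFF1 of its 47. ASAP1, MAML2 and PITPNC1 held 8 each, of 73, 85 and 57, and EBF1, the B-cell factor, held 7 of 65. The share over all regions was 2.65%, and these genes were picked for their counts. These are long genes, between 316 and 404 kb for ARHGEF28, ASAP1, MAML2, PITPNC1 and EBF1 and between 349 and 1146 kb for the first 3.

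The 32 promoters of K562 and HEK293T are described by their strongest members. TRIM58, a ubiquitin ligase of maturing red cells, came first, with folds of 7.02 and 6.51 in K562 and 13.3 and 11.9 in HEK293T. DSC2 and PKP2, which encode parts of desmosomes, stood at 6.30, 6.20, 7.73 and 7.99 and at 9.17, 10.2, 7.88 and 7.95. The neural patterning genes EN1, ZIC5 and BARHL2 were members, with EN1 at 6.49, 9.72, 9.09 and 11.0. So were NPFFR2, a neuropeptide receptor, STRA8, which acts at entry into meiosis, USH1C, a scaffold of hair cells, and KCNA4, a potassium channel. GALNTL5 and TTC34 complete the first 12. Their peaks ranked between percentiles 35.7 and 93.2 of their lists. The median GC content under the summits of all 32 was 67.8%.

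**Figure D3:**
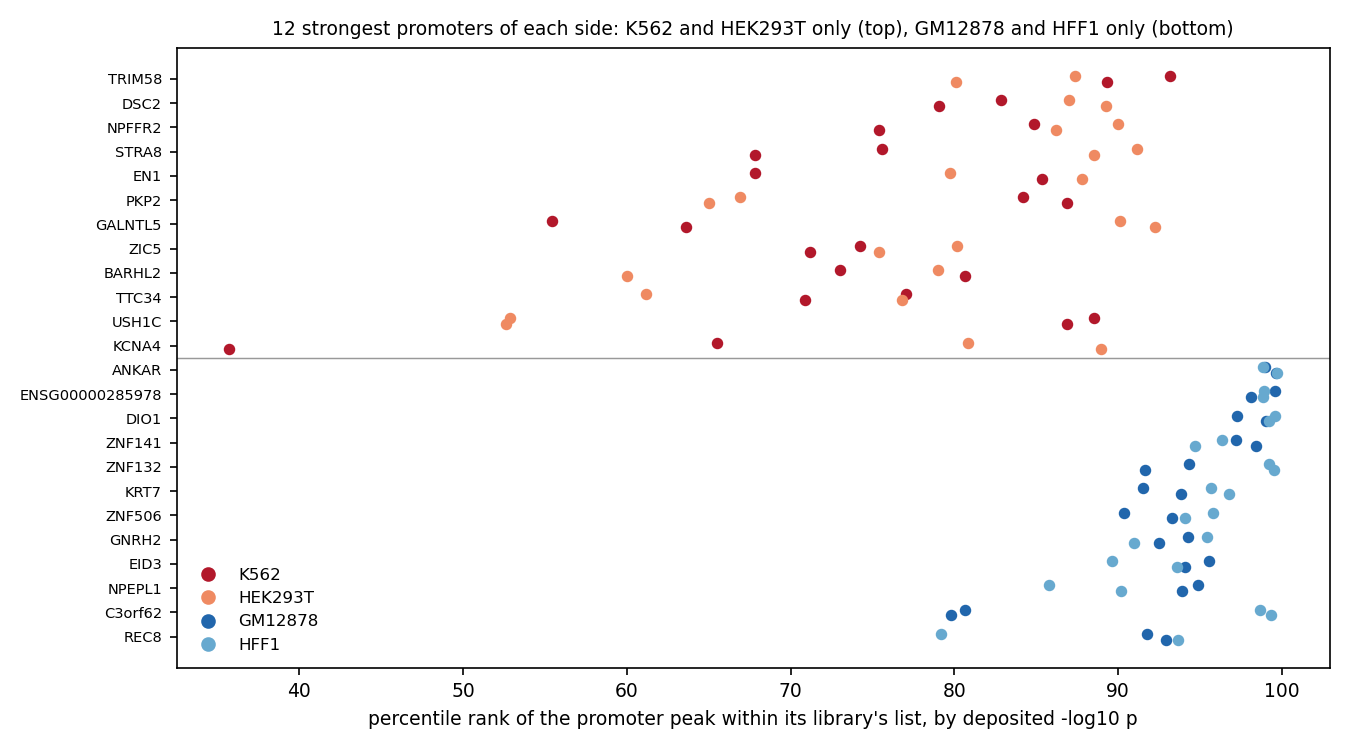
Percentile rank within its library's list, by the deposited -log10 p, of the promoter peak of the 12 strongest promoters of each side; each point is 1 of the 4 libraries of that side, coloured by line. TRIM58 leads the upper group, and ANKAR leads the lower group with all 4 points close to 99.

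Within these promoters the 2 lines did not rank alike. USH1C ranked at 88.5 and 86.9 in K562 and at 52.9 and 52.7 in HEK293T, whereas GALNTL5 ranked at 55.4 and 63.6 in K562 and at 90.1 and 92.2 in HEK293T. The summits of GALNTL5 and ZIC5 lay outside the 1 kb window, at 1054 and 1230 bp from a start site, so only the flank of their peaks reached it. STRA8, BARHL2 and GALNTL5 were no longer members with windows of 500 bp.

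Over whole sets, the median of the mean percentiles was 60.4 for the 32 promoters of K562 and HEK293T and 55.9 for the 258 of GM12878 and HFF1. The 12 strongest were taken from 258 promoters here and from 32 above, so their ranks are not compared. ANKAR ranked between 98.8 and 99.7 in all 4 libraries. Zinc finger genes among the 12 were ZNF141 at folds of 13.0, 13.6, 9.77 and 9.95, ZNF132 at 14.1, 13.0, 14.5 and 15.1 and ZNF506 at 12.2, 13.6, 14.2 and 13.2. In all, 11 of 553 zinc finger genes were members, or 1.99%, near the 1.35% of all genes. KRT7, a keratin of simple epithelia, stood at 12.4, 12.7, 10.1 and 10.7. EID3, NPEPL1, an aminopeptidase, C3orf62 and REC8, the meiotic cohesin subunit, complete those whose summit lay in the window. For ENSG00000285978, DIO1 and GNRH2 the summit lay 1398, 1372 and 1579 bp from their own start sites, in windows shared with ZNF354A, YIPF1 and MRPS26. Their membership came from wide peaks and was lost when peaks were replaced by short windows at their summits. Over all 258 promoters, 15 had such distant summits. A merged region open in GM12878 and HFF1 only overlapped the windows of 187 (72.5%). For the 32 promoters of K562 and HEK293T, a region open in those lines only did so for 27 (84.4%).

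Genes of the response to cytosolic DNA and RNA made up 4 of the 5 listed genes among the promoters of GM12878 and HFF1. Of 18 listed genes of innate sensing, 4 were members, beside 1.35% of all genes, 9 were open in all 8 libraries, and none was open in K562 and HEK293T only, beside 0.167% of all genes. The lists were chosen with earlier results of these data known, so this count carries no test. CGAS, the sensor that makes cyclic GMP-AMP on double-stranded DNA, stood at folds of 7.66 and 7.66 in GM12878 and 11.6 and 11.2 in HFF1. OAS1 and OAS2, the oligoadenylate synthetases, stood at 10.1, 10.3, 9.21 and 9.82 and at 10.5, 9.84, 10.1 and 10.1. ZBP1, a sensor of left-handed nucleic acid, stood at 6.89, 7.72, 8.23 and 7.32. None of the 4 had a promoter peak in any K562 or HEK293T library. STING1, which acts downstream of CGAS, IFI16 and OAS3 were closed in HEK293T but open in K562, with STING1 at 6.69 and 6.49 there. TBK1, IRF3, IRF7, MAVS, RIGI and IFIH1, the kinase, factors, adaptor and RNA sensors of the pathway, were open in all 8.

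**Figure D4:**
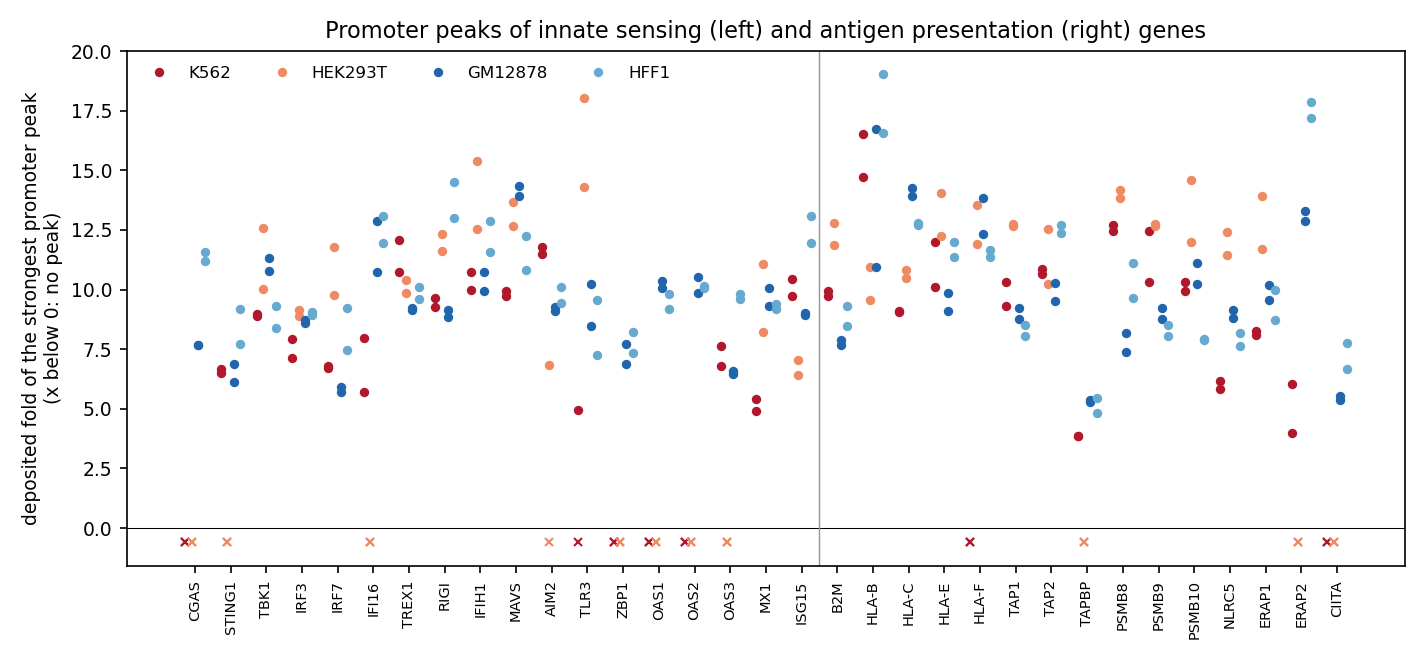
Deposited fold over background of the strongest promoter peak of listed genes of innate sensing (left) and antigen presentation (right), with 1 listed gene not shown; points are single libraries coloured by line, and crosses below 0 mark libraries without a peak. CGAS, ZBP1, OAS1, OAS2 and CIITA have crosses for all 4 libraries of K562 and HEK293T.

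Antigen presentation showed 1 member of 16, beside 1.35% of all genes. CIITA, the master regulator of HLA class II genes, stood at folds of 5.37 and 5.55 in GM12878 and 6.67 and 7.76 in HFF1, with its summit in a window shared with DEXI. HLA-F, a class I gene, was closed in K562 alone and stood at 11.9 and 13.5 in HEK293T, 13.8 and 12.3 in GM12878 and 11.3 and 11.7 in HFF1. TAPBP and ERAP2, which load and trim class I peptides, were closed in HEK293T alone. B2M, HLA-B, HLA-C, TAP1 and TAP2 were open in all 8. CGAS, OAS1 and OAS2 were also members after thinning and in the 40000 strongest peaks, while ZBP1 and CIITA were not, and ZBP1 was also lost with promoter windows of 500 bp.

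Interferon-induced genes were also frequent among these promoters. By name, 34 genes of the IFI, IFIT, OAS, MX and GBP families with XAF1 and RTP4 were counted, a group defined after its values were seen. Of them 9 were open in GM12878 and HFF1 only, which are GBP1, IFI44, IFI44L, MX2, OAS1, OAS2, OASL, RTP4 and XAF1, and 10 were open in all 8. This is 26.5% of the group, beside 1.35% of all genes, and carries no test. IFI44, printed above with its IRF site, stood at 7.54, 8.85, 10.3 and 11.1. The count was 7 after thinning and 5 in the 40000 strongest peaks. In promoter regions of GM12878 and HFF1 the IRF letters lay under 6.84% of 833 summits, against 2.83% of 33234 promoter regions in all, with 3.12% and 2.10% for the reversed letters. Other immune promoters chosen after their values were seen included CASP1, the protease that matures interleukin-1 (11.53, 9.89, 13.4 and 13.8), and CD38, an ectoenzyme of lymphocytes (7.97, 8.67, 7.75 and 9.75).

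Histone genes were a further group seen by name. Of 83 genes of H1, H2A, H2B, H3 and H4, 9 were open in GM12878 and HFF1 only (10.8%, beside 1.35% of all genes) and none in K562 and HEK293T only, while 47 were open in all 8. H2BC10, in a window shared with H3C8, stood at folds of 6.40, 6.13, 6.76 and 6.83. The count was 4 after thinning. Many histone genes have near-identical copies, between which reads may be split, so single genes of this group are uncertain. The imprinted SNRPN and SNURF, which share a window, were also members, at 8.999, 8.997, 8.70 and 12.2.

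Listed genes that guard the genome were mostly open in all 8 libraries. All 19 listed genes of the mitotic checkpoint, among them MAD2L1, BUB1B, TTK and AURKB, had open promoters in all 8 libraries. So had 19 of 20 p53 targets, all 16 genes of protein folding stress and 17 of 18 of the DNA damage response. MDM2, the p53 ligase, stood between 6.71 and 10.4 and CDKN1A, the p53-induced cell-cycle inhibitor, between 5.14 and 10.2. The exceptions were PHLDA3, a p53 target without a peak in K562 replicate 2, and MGMT, a DNA repair gene closed in GM12878. Over all genes 60.5% were open in all 8. Of 20 oncofetal and germ-line genes, none was a member of either kind. Over all genes, 0.167% were members of K562 and HEK293T and 1.35% of GM12878 and HFF1. At those shares a list of 20 genes is likely to hold none. PRAME was open in K562, HEK293T and GM12878, and DPPA2 in K562 alone. An open promoter is not a measure of expression.

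Of 18 tumour suppressors and cell-cycle inhibitors 16 were open in all 8, and CDKN2A and CDKN2B were closed in K562 only. CDKN2A stood at folds of 11.1 and 7.65 in HEK293T, 10.6 and 10.7 in GM12878 and 7.28 and 8.28 in HFF1. K562 is known to lack this locus. On chromosome 9 from 21 to 26 Mb the K562 libraries had 0 peaks, the HEK293T libraries 42 and 43, the GM12878 libraries 127 and 123 and the HFF1 libraries 89 and 92. That stretch held 15 of the 6274 regions open in GM12878 and HFF1 only. The surrounding bin from 20 to 30 Mb had the highest share of such regions of any 10 Mb bin, at 25 of 422 or 5.92%.

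Stretches without peaks were not confined to the aneuploid lines. Windows of 1 Mb with at least 3 peaks in each library of the other 3 lines lacked any K562 peak in 44 of 2343 cases and any HFF1 peak in 30 of 2244. For GM12878 this held in 6 of 2192 cases and for HEK293T in 0 of 2184. The windows empty in K562 held 63 of the 6274 regions open in GM12878 and HFF1 only. How many of all merged regions lay in these windows was not counted. A lost segment and closed chromatin both leave no peak and cannot be told apart here.

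The label was checked on signal at sites open in every library, where HEK293T stood apart and K562 lay close to GM12878. At the 20134 regions open in all 8 libraries, each library's reads at the summit were set against the mean of the other 3 lines on a log2 scale and the median was taken per chromosome. The SD of these medians over 22 chromosomes was 0.27 for HEK293T, 0.14 for GM12878, 0.13 for K562 and 0.11 for HFF1. The mean difference between the pairs was 0.07 (exact two-sided permutation p = 0.667, adjusted p = 0.667 over 4 tests). K562 lay below GM12878 by this measure. With distal regions alone it lay just above, at 0.144 against 0.137 (exact permutation p = 0.333). In bins of 10 Mb the SDs were 0.21, 0.39, 0.18 and 0.16, with K562 above both near-diploid lines (exact permutation p = 0.333). The replicates of a line gave the same profile, with Pearson r across 268 bins between 0.93 and 0.98, as a description of bins that are not independent.

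The chromosome level of HEK293T followed GC content, with r of -0.85 between its level and the median GC content of regions over 22 chromosomes. The levels of GM12878 and HFF1 went the other way, with r of 0.81 and 0.69, and that of K562 had r of 0.23. Each level was set against the mean of the other lines, so the HEK293T profile enters the others with opposite sign. These r values are therefore not independent. The levels were therefore also centred within 10 equal groups of regions by GC content and set against the median of the 4 lines, a choice made after the data were seen. The SDs over chromosomes were then 0.193 for HEK293T, 0.0792 for K562, 0.0784 for GM12878 and 0.0651 for HFF1 (exact permutation p = 0.333). Centring alone, with the earlier reference, gave 0.263, 0.127, 0.144 and 0.121 in the same order (exact permutation p = 0.667). The median reference alone gave 0.195, 0.0743, 0.0769 and 0.0565 (exact permutation p = 0.667). The lower spread of HEK293T thus came mostly with the change of reference. K562 lay above GM12878 with both changes and below it with either alone. With both changes, 94 of 268 bins (35.1%) lay more than 0.3 from 0 in HEK293T, 6 (2.24%) in K562, and 1 each (0.373%) in GM12878 and HFF1.

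**Figure D5:**
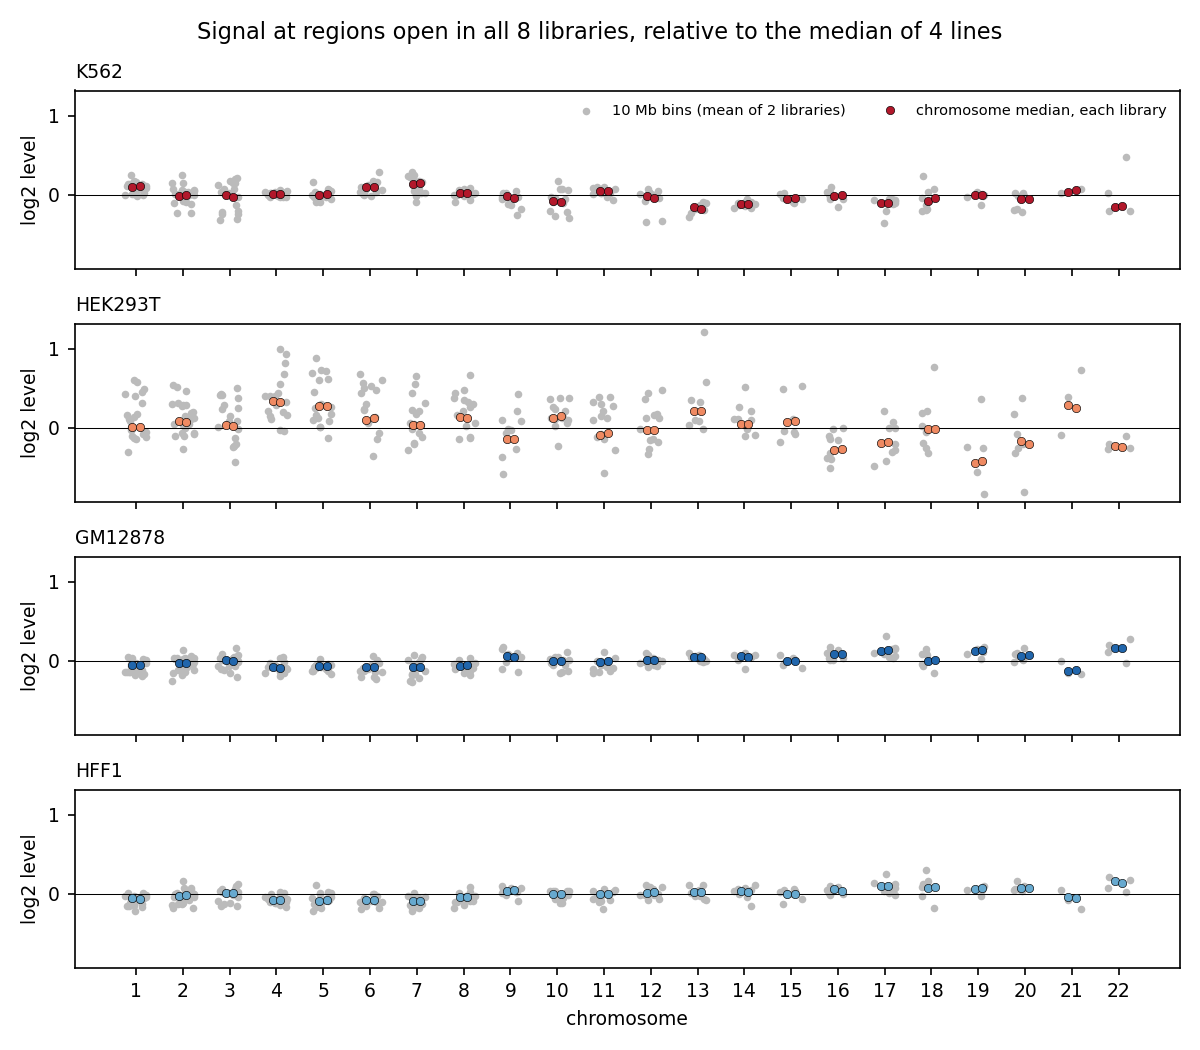
Log2 signal at regions open in all 8 libraries, centred within 10 groups of GC content and relative to the median of the 4 lines, by chromosome; coloured points are chromosome medians of single libraries and grey points 10 Mb bins averaged over 2 libraries. HEK293T spreads most, from 0.33 on chromosome 4 to -0.43 on chromosome 19, and 6 bins of K562 lie beyond 0.3, the highest at 0.47 on chromosome 22.

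On this scale HEK293T was highest on chromosomes 4 (0.33), 5 (0.27) and 21 (0.27) and lowest on chromosomes 19 (-0.43) and 16 (-0.27). Its highest bins were chromosome 13 from 70 to 80 Mb, at 1.21, and chromosome 4 from 170 to 180 Mb, at 0.99. K562 was highest on chromosome 7 (0.14) and lowest on chromosome 13 (-0.17). Its highest bin was chromosome 22 from 10 to 20 Mb, at 0.47, and its lowest was chromosome 17 from 10 to 20 Mb, at -0.35. The whole of chromosome 22 stood at -0.15 in K562. HEK293T was also the shallowest line. The part of depth in this spread was not tested.

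Members were spread over all autosomes, unevenly. Regions of K562 and HEK293T made up between 0.195% of regions on chromosome 18 and 1.01% on chromosome 7, and those of GM12878 and HFF1 between 1.90% on chromosome 4 and 3.71% on chromosome 17. Over 22 chromosomes, the share of the first kind had r of 0.66 with the HEK293T level, 0.30 with the K562 level, -0.73 with the GM12878 level and -0.84 with the HFF1 level. These levels were not centred on GC content. Each was set against the mean of the other lines, so the levels of the lines are not independent of one another. The r values are given as a description of values that share the same libraries. Whether copy number sets part of the membership was not tested.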

How the data were processed

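The authors deposited 1 narrowPeak list per library, with positions (start, end and summit offset), a fold (the linear ratio of the summit over local background), -log10 p and -log10 q values, and a score. The deposited score was not used in any result. The submitters' processing notes name cutadapt 3.2, Bowtie2 2.4.2, Picard, MACS2 2.2.7.1 and the builds hg38 and mm10. Reads at the summit and their expected background were recovered from the deposited fold and -log10 p, for 100% of peaks, and the script was tested on simulated data.

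Autosomal peaks overlapping by at least 1 bp were merged. Start sites came from GENCODE release 44, and promoter peaks overlapped 1 kb on either side. Coordinates count from 1. Thinning scaled reads and background to the lowest depth and kept peaks still past the threshold. Groups followed the labels. Line means were compared by exact permutation over 4 lines, 2 against 2, with Benjamini-Hochberg adjustment over 4 tests. Python 3.11.15, numpy 2.4.6, pandas 2.3.3 and scipy 1.17.1 were used.

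Names were drawn, not exhaustively, from the 10 strongest regions, the 10 genes hosting most members and the 12 strongest promoters per side, by mean percentile of the -log10 p, with every member in a gene list. The members and lists were chosen with earlier results of these data known. Alternatives were stricter peaks, the 40000 strongest peaks, thinning, short summit windows, start-site windows of 500 bp, another reference, distal regions, bins of 10 Mb, each library left out and a replicate block. Sex chromosomes and mouse libraries were left out, and the values of 1 listed gene are not reported here. Reads copied by PCR and not marked by molecular barcodes do not count separate molecules.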

Additional observations from a re-analysis of the deposited data

Results flagged for a closer look

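Chromosome X was outside the comparison of autosomes. Of its 6573 merged regions, 55 were open in K562 and HEK293T only and 118 in GM12878 and HFF1 only. These values come from data that no comparison above used. No group held the 4 or more replicates that a search for single outlying libraries needs.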

How the results depend on the processing

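Of 102 alternatives for the main results, 94 left the sign and the call as they were (for counts, within 1.5 times). With the 40000 strongest peaks per library, 2156 regions and 266 promoters were open in K562 and HEK293T only, and 1036 regions and 95 promoters in GM12878 and HFF1 only, which turns the order. Thinning gave 60 promoters for K562 and HEK293T, and 2671 regions and 158 promoters for GM12878 and HFF1. Leaving out each library in turn gave 34 to 50 promoters for K562 and HEK293T, with 50 without HEK293T replicate 2. Leaving out a library relaxes the rule, so these counts can only stay at or rise from the 32 of the full set. The causes of the other changes were not tested. With labels permuted over libraries within replicate numbers (replicate block), the differences in peak number (-48858) and promoter share (9.52 percentage points) had p = 0.0556, the smallest this exact permutation allows, unevenness (0.07) had p = 0.278 and the Jaccard difference was 0.0356. The block treats the replicates of a line as independent. The numbers did not pair libraries: deviations of same-numbered libraries correlated between -0.0171 and 0.0172 over 6 pairs of lines. No alternative could pass 0.05 with 4 lines, which says nothing of stability. Thinning scales a library by 1 factor and so says little of unevenness. Depth limits the HEK293T lists most. Settings added after seeing the data were the GC centring, leaving out the weakest 30% of each list (953 and 4504 regions) and the motif, promoter share and gene family counts under other settings.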
